A study of Rattus norvegicus with 12 samples.

Results

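The AP-1 family comprises the transcription factors that pair into activator protein 1, a dimer that binds DNA through a basic leucine zipper. Members were all probe sets of an Affymetrix Rat Genome 230 2.0 array whose single annotated symbol was Jun, Junb, Jund, Fos, Fosb, Fosl1, Fosl2, Atf3 or Maff. This gave 15 of 31042 probe sets, for all 9 genes out of 14217 with such a probe set. Of the 15, 9 probe sets of 7 genes passed a filter on mean signal and were tested, and the other 6, which include all those of Fosb and Fosl2, are given by their values.

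The samples were primary retinal ganglion cells (RGCs), the neurons that send axons through the optic nerve, from Sprague-Dawley rat pups of postnatal days 4 to 6. The cells were isolated by panning on Thy-1.1 and grown for 7 days in serum-free medium with BDNF, CNTF and forskolin, and all groups then spent a night without the neurotrophic factors. For the next 24 h the groups received 100 nM of one of the endothelins ET-1, ET-2 and ET-3, or none, the group called untreated in the titles and vehicle-treated in the descriptions. There were 3 arrays per group, numbered 1 to 3 as biological replicates, 12 in all, and a number is called a replicate below. What arrays of one number share is not stated in the labels, so p-values measure the spread between these arrays.

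Jun proteins can pair with each other or with Fos proteins, whereas Fos proteins need a Jun partner. Many of these genes are immediate early genes: kinase cascades downstream of receptors switch them on within minutes, and the transcripts of Fos and Fosb usually decay soon after. Fosl1 is known as a later and more lasting member. Jun is phosphorylated by JNK, and both Jun and Atf3 are known as genes that injured RGCs and other axotomised neurons induce. Endothelins act through G protein-coupled receptors, and c-Jun, the product of Jun, has been linked to endothelin-induced death of RGCs.

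The values are MAS5 signals on a linear scale, which the authors appear to have scaled to one trimmed mean (496.7 to 498.3 on the 12 arrays, with medians of 136 to 181). A signal ranks arrays for 1 probe set and says nothing of one gene's level against another's. Changes are differences of log2 signal from a limma fit that blocks on the replicate number. P-values carry the Benjamini-Hochberg adjustment for all 15521 tested probe sets, and a call means an adjusted p below 0.05. Marker genes of RGCs were present: all 15 with a probe set passed the filter, and their summed signal lay between 100984 and 144130 in untreated and between 101568 and 157102 in treated arrays. One of the 15, Eomes, fell for the mean of the endothelins. Replicate 1 stood apart by fibroblast genes. The summed signal of 8 such genes was 48939 in its untreated array against 10613 and 7081 in replicates 2 and 3, and 48894 to 54536 against 6769 to 10109 in treated arrays.

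At 24 h, 1 tested member of the family was called higher with endothelin. Fosl1, which encodes the Fos-related protein FRA-1, rose 1.96-fold on average over the 3 endothelins (log2 change 0.97 ± 0.24, SE of the fit, n = 3 arrays per group, adjusted p = 0.0354 by limma). This SE pools the spread of the change between replicates with that of the differences among endothelins. The former was wide, with log2 changes of 1.99, 0.816 and 0.113 in replicates 1, 2 and 3. Among the tested probe sets Junb had the next largest change, 1.43-fold (0.52 ± 0.17), and missed the threshold (adjusted p = 0.107). Tested probe sets of Jun, Jund, Fos, Atf3 and Maff differed little from untreated. The log2 changes of these 7 lay between -0.06 and 0.10, and their 95% intervals between 0.888-fold and 1.22-fold. These intervals pool the 2 kinds of spread in the same way. Among all probe sets tested, 4.88% were called in this comparison (758, of which 549 higher), and 3.54% were called higher. With each array centred on its median 1492 were called, of which 426 were higher. The 1 call among 9 member probe sets is 1 feature, and the median change of the 9 was 0.0098 against -0.028 over all probe sets tested.

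**Figure D1:**
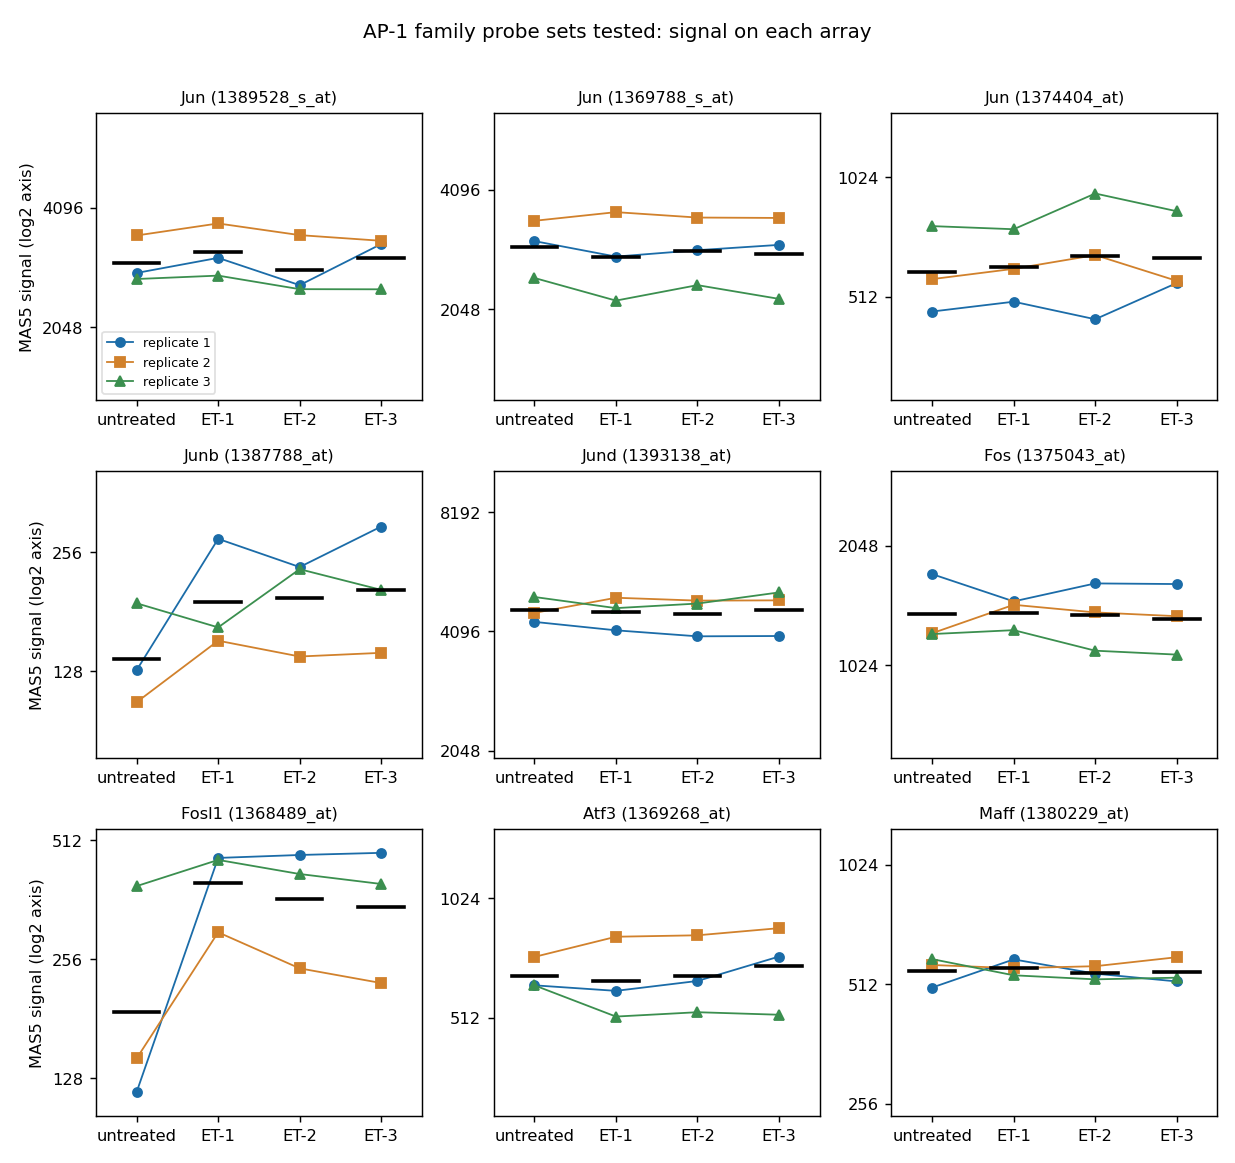
MAS5 signal (log2 axis, a different range in each panel) of the 9 tested AP-1 family probe sets on each of the 12 arrays; lines join arrays of one replicate number and black bars mark the mean of log2 signal per group (n = 3). Fosl1 lies at 118.3 to 392.1 in untreated and 223 to 475.9 in treated arrays, while the lines of Jun, Jund, Fos, Atf3 and Maff run nearly level, and those of Maff cross between replicate numbers.

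Fosl1 was read by 1 probe set, 1368489_at. Its signal in untreated cells was 118.3, 143.8 and 392.1 in replicates 1, 2 and 3. With ET-1 it was 462, 299.6 and 456.7, with ET-2 470, 242.9 and 420.7, and with ET-3 475.9, 223 and 397. The untreated array of replicate 3 was thus well above the other untreated arrays and above the replicate 2 arrays of all 3 endothelins, so the groups overlapped. Within a replicate number every treated array was above its untreated array, in 9 of 9 pairs. The 3 pairs of a replicate share its untreated array, so the pairs are not independent. Among all probe sets tested, 5.59% were higher in all 9 pairs.

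The size of the Fosl1 difference was very unequal between replicates. Averaged over the endothelins it was 3.97-fold in replicate 1, 1.76-fold in replicate 2 and 1.08-fold in replicate 3. Each peptide alone gave a log2 change of 1.08 ± 0.29 (ET-1), 0.95 ± 0.29 (ET-2) and 0.89 ± 0.29 (ET-3). None of these passed on its own (limma adjusted p = 0.0888, 0.139 and 0.131). The shares of all probe sets called in these comparisons were 1.73%, 1.60% and 2.64%. Of the 9 member probe sets, 0 were called in each. In each, 2 of the 9 (Fosl1 and Junb) had an unadjusted p under 0.05 by limma, as had 2400, 2537 and 2761 of all 15521 probe sets tested. Without the replicate block the Fosl1 change had an unadjusted p of 0.0254 and an adjusted p of 1 by limma, in a fit that called 0 of all probe sets (397 at an unadjusted p under 0.05).

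The Fosl1 call rested on several single arrays. Without the untreated array of replicate 1 the change was 0.46 (adjusted p = 0.155 by limma), and without the untreated array of replicate 3 it was 1.40 (adjusted p = 0.00213). In that last setting Fosl1 also passed with ET-1, ET-2 and ET-3 alone (adjusted p = 0.00431, 0.01 and 0.00958). The call was also lost without any other single array of replicates 1 and 2 or without ET-2 replicate 3 (adjusted p of 0.0503 to 0.0826), and without all of replicate 1 or all of replicate 2 (0.24 and 0.173). Over 21 alternatives the change stayed between 0.46 and 1.40 and was called in 7.

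Junb encodes a Jun protein that often restrains the activity of c-Jun. Its probe set, 1387788_at, read 129, 107.1 and 190.1 in untreated replicates 1, 2 and 3. The ET-1 arrays read 276.3, 153 and 165.3, the ET-2 arrays 234.6, 139.6 and 231.7, and the ET-3 arrays 296.7, 142.6 and 205.5. It was higher in 8 of 9 pairs, which share untreated arrays as for Fosl1, and the share of all probe sets at 8 was not counted. The exception was ET-1 in replicate 3, and the groups overlapped. As for Fosl1, the mean difference was largest in replicate 1 (2.08-fold), then 1.35-fold in replicate 2 and 1.05-fold in replicate 3. The log2 change was 0.47 with ET-1, 0.51 with ET-2 and 0.58 with ET-3, each ± 0.21 and none past the threshold (limma adjusted p = 0.31, 0.255 and 0.179). Its mean untreated signal of 142.1 lay below the filter of 147.5, so the probe set entered the test through its treated arrays. Without the untreated array of replicate 3 Junb passed for the mean of the endothelins (0.75, adjusted p = 0.0357 by limma).

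**Figure D2:**
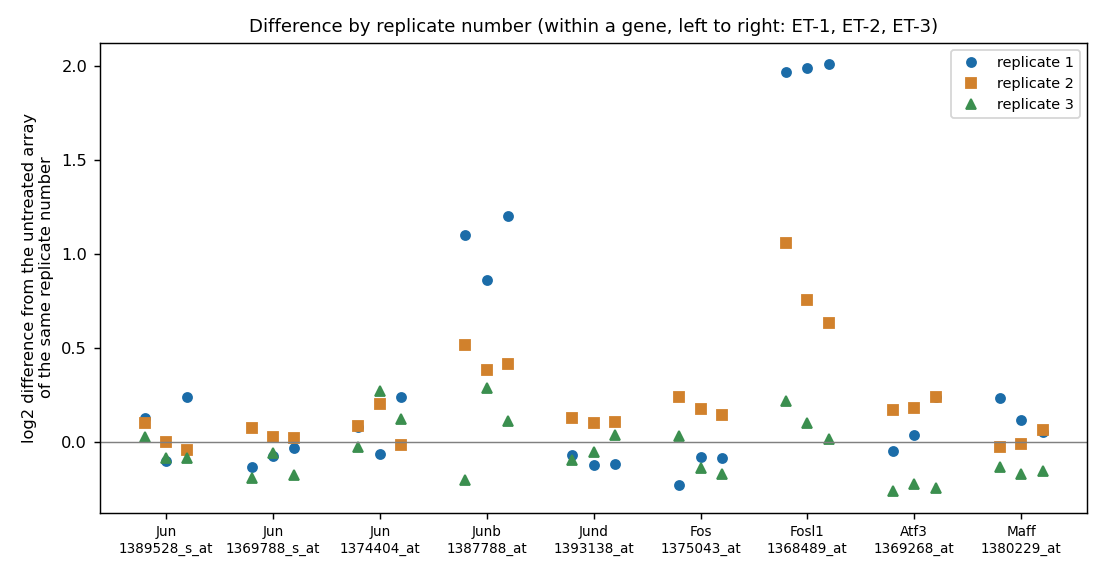
Log2 difference of each treated array from the untreated array of its replicate number, for the 9 tested probe sets (ET-1, ET-2 and ET-3 from left to right within a gene). For Fosl1 the replicate 1 points lie near 2 and the replicate 3 points between 0.018 and 0.22, and for Junb replicate 1 is likewise the highest and replicate 3 the lowest with each endothelin; for the other genes the points scatter around 0.

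Markers of some other cell types differed between the groups. Of 5 tested astrocyte and Müller glia markers, 3 rose for the mean of the endothelins (Vim, Gja1 and Clu). The other 2, Glul and Slc1a3, changed by -0.02 and 0.08 on the log2 scale (limma adjusted p = 0.93 and 0.787). The summed signal of all 10 markers was 16331 to 22599 in untreated arrays, 23403 to 30786 with ET-1, 20651 to 32064 with ET-2 and 23804 to 31771 with ET-3. Within this sum, Vim alone read 6711 to 7759 in untreated and 9692 to 13670 in treated arrays. Gfap, Aqp4, Rlbp1, S100b and Aldh1l1, defining markers of these glia, lay below the filter. Of 5 tested pericyte and smooth muscle markers, 4 rose (Acta2, Tagln, Cnn1 and Pdgfrb), and the sum of 8 was 4032 to 6842 in untreated arrays against 7545 to 10918, 7482 to 8952 and 8851 to 10460 with ET-1, ET-2 and ET-3. Tagln alone read 2708 to 5003 in untreated and 5201 to 8217 in treated arrays. Of 2 tested endothelial markers Esm1 rose and Kdr fell, with 5 others, Pecam1 and Cldn5 among them, below the filter. The sum of 7 was 741 to 994 in untreated arrays and 1254 to 6313 in treated arrays, and Esm1 alone read 101.9 to 380.7 and 705.8 to 5937. Without Esm1 the sum of the other 6 was 421 to 747 in untreated and 289 to 751 in treated arrays. Col3a1 fell among 6 fibroblast markers. Of the microglia and macrophage markers 0 of 6 passed, and of those of amacrine and other retinal neurons 0 of 4. In the treated arrays Esm1 was highest in replicate 1 (5003 to 5937, against 705.8 to 1424 in the others), whereas the sum without it was lowest there (289 to 376, against 548 to 751). The part of such cells in the Fosl1 and Junb values was not tested, and in a bulk culture fewer cells of a type and less RNA per cell cannot be told apart.

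The promoters of Fosl1 and Junb, the 2 members with the largest change among tested probe sets, are shown beside those of 2 steady members, Jund and Maff, to set out which of 4 common elements they hold, among them those that AP-1 and CREB/ATF factors bind. Each sequence is the 250 bases before the RefSeq start of the gene (build GRCr8), 5′ to 3′ on the gene's strand. Capitals mark exact matches, on either strand, to the AP-1 site TGANTCA, the cAMP response element TGACGTCA, the TATA box TATAAA and the serum response element (CArG box). The Fosl1 stretch is chr1:212183635-212183884 (plus strand), Junb is chr19:40080876-40081125 (plus), Jund is chr16:18769772-18770021 (minus) and Maff is chr7:112792537-112792786 (plus).
Fosl1: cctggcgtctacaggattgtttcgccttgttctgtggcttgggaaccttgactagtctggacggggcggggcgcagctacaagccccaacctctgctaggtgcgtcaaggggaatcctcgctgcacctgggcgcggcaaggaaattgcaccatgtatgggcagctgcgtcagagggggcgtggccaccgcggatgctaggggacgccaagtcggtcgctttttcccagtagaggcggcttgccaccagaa
Junb: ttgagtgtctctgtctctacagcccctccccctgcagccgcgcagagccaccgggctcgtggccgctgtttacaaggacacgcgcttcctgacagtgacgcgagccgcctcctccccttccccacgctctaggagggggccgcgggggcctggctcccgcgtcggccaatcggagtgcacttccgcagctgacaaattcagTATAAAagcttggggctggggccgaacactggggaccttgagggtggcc
Jund: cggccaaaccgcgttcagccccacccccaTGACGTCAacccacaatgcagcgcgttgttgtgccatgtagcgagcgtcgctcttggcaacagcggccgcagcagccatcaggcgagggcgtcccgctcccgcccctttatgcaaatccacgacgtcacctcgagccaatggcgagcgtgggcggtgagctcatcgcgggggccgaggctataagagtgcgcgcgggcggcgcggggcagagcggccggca
Maff: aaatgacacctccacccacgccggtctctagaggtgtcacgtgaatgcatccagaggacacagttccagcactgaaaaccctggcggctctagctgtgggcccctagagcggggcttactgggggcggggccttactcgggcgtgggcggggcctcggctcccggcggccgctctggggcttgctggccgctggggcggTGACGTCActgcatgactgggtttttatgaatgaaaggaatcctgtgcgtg

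Jund and Maff each held 1 cAMP response element, its first base 221 and 51 bases before the start, an element found in 1.59% of 33469 windows of this length. Junb had 1 TATA box at 49 bases (12.9% of windows). No AP-1 site or CArG box matched exactly in these 4 windows (6.34% and 1.5% of all windows hold one), and Fosl1 held no exact match to any of the 4 elements. Sites that differ from an element by a base were not searched for. RefSeq promoters were matched for 6 of the 9 genes. Of the 2 not printed, Fosb held 1 match to TATAAA at 180 bases, on the opposite strand, and Fosl2 none of the 4 elements. Jun, Fos and Atf3 were not matched.

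Jun, whose product is the main JNK substrate of the family, was read by 3 probe sets. The brightest, 1389528_s_at, read 2807, 3489 and 2710 in untreated replicates 1, 2 and 3. It read 3064, 3741 and 2764 with ET-1, 2615, 3496 and 2555 with ET-2, and 3319, 3383 and 2553 with ET-3. The groups overlapped throughout, and replicate 2 was the highest in every group. Its log2 change was 0.09 ± 0.07 with ET-1, -0.06 ± 0.07 with ET-2 and 0.04 ± 0.07 with ET-3. For the mean of the endothelins it was 0.02 with a 95% interval of 0.93-fold to 1.11-fold.

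The other Jun probe sets gave small changes of either sign. For the mean of the endothelins, 1369788_s_at changed by -0.06 ± 0.05 and 1374404_at by 0.10 ± 0.08, neither past the threshold (limma adjusted p = 0.506 and 0.529). Over the replicate numbers the probe sets disagreed. The mean signal of 1369788_s_at was 2915, 3492 and 2279 in replicates 1, 2 and 3, and that of 1374404_at was 490.6, 593.8 and 821.5. Replicate 3 was thus the lowest by one probe set and the highest by the other, and 1374404_at carries the same sequence record in the annotation as 1389528_s_at, which was lowest in replicate 3. Probe sets ending in _s_at can bind related transcripts of several genes.

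Jund encodes the Jun protein that is expressed most steadily in many resting cells. Its probe set 1393138_at read 4331, 4563 and 5004 in untreated replicates 1, 2 and 3. It read 4124, 4982 and 4691 with ET-1, 3983, 4900 and 4817 with ET-2, and 3990, 4907 and 5138 with ET-3. Every array lay between 3983 and 5138 and the groups overlapped. The change for the mean of the endothelins was 0.993-fold, with a 95% interval of 0.926-fold to 1.07-fold (limma adjusted p = 0.931).

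Fos, the founding immediate early gene of the family, had 1 tested probe set, 1375043_at. It read 1737, 1233 and 1227 in untreated replicates 1, 2 and 3, then 1483, 1454 and 1255 with ET-1, 1646, 1391 and 1114 with ET-2, and 1640, 1361 and 1089 with ET-3. Treated arrays were lower than their untreated array in replicate 1, higher in replicate 2 and of both signs in replicate 3. The log2 change for the mean of the endothelins was -0.01 ± 0.07, with a 95% interval of 0.892-fold to 1.1-fold.

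Atf3, a stress-induced factor that pairs with Jun proteins, was read by 1369268_at. Untreated arrays read 617.5, 728.2 and 617.4 in replicates 1, 2 and 3. ET-1 arrays read 598, 818.6 and 515.1, ET-2 arrays 633.3, 825.5 and 528.3, and ET-3 arrays 729.6, 860.3 and 520.6. All treated arrays were above untreated in replicate 2 and below it in replicate 3. The change was 0.01 ± 0.08 for the mean of the endothelins, with a 95% interval of 0.888-fold to 1.14-fold (limma adjusted p = 0.962).

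Maff encodes a small Maf protein, which has a leucine zipper but no activation domain. Its signal lay between 501.9 and 598.4 on all 12 arrays. Untreated arrays read 501.9, 572 and 591.8, and treated arrays 520 to 598.4, so the groups overlapped. The change was -0.003 ± 0.08.

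**Figure D3:**
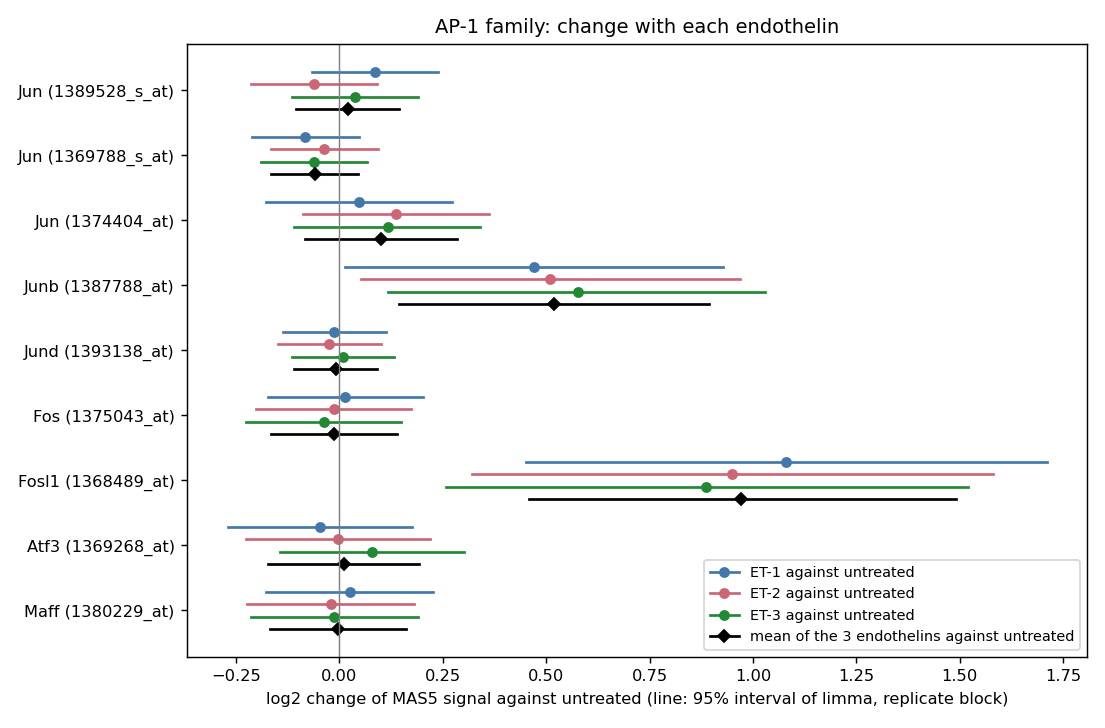
Log2 change of signal against untreated for the 9 tested probe sets, with the 95% interval of the limma fit (circles: each endothelin; diamonds: mean of the 3). The intervals of Fosl1 and Junb lie above 0 before adjustment, and all intervals of Jun, Jund, Fos, Atf3 and Maff contain 0, within -0.269 and 0.362.

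The number of arrays limits how small a change can be seen. For the 7 tested probe sets of these 5 genes, no interval of a single endothelin against untreated reached below 0.83-fold or above 1.28-fold. This does not cover the probe sets of Fos and Jund below the filter. On the log2 scale these intervals lay within -0.269 and 0.362. They pool the spread between replicates with that among endothelins, so they can be too narrow for a change that differs by replicate. Atf3 with ET-3, for one, differed by 0.241, 0.24 and -0.246 in replicates 1, 2 and 3. Simulated data with the same means and spreads gave recovery rates for all probe sets tested, not for these 5 genes. The same shift was added in every replicate, so the rates do not cover a change that differs by replicate. Fewer probe sets were changed than were called in the data, which also affects the adjustment. Of 100 changed probe sets per size, the fits for single endothelins found 84% to 86% of changes of 1 on the log2 scale. They found 40% to 44% of changes of 0.5. The fit for the mean of the endothelins found 94% and 55%. Replicate number accounted for most of the variance of log2 signal, 79.9% to 95.3% for the tested probe sets of Jun, Jund, Fos and Atf3, with 0.82% to 7.8% between groups. Over all probe sets tested the medians were 68.7% and 10.4%. Maff was different, with 26.8% between replicate numbers, and for Fosl1 the shares were 32.7% between replicate numbers and 41% between groups.

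The 6 probe sets below the filter had signals from 1.112 to 355.3 and were tested in no main comparison. Fosb, an immediate early Fos protein, read 32.82, 21.63 and 22.7 in untreated replicates 1, 2 and 3. It read 52.05, 37.92 and 38.34 with ET-1, 42.03, 36.85 and 45.92 with ET-2, and 32.7, 38.04 and 19.05 with ET-3. The ET-1 and ET-2 arrays all lay above the untreated arrays, and the ET-3 arrays overlapped them. With all probe sets kept, its change was 0.74 ± 0.40 with ET-1, 0.71 ± 0.40 with ET-2 and 0.19 ± 0.40 with ET-3, none past the threshold (limma adjusted p = 0.529, 0.481 and 0.898).

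Fosl2, which encodes FRA-2, was read by 2 low probe sets. With 1387530_a_at the untreated arrays read 13.74, 4.939 and 11.59, and the treated arrays 4.24 to 54.55. This probe set was higher in 8 of the 9 pairs, which share untreated arrays. Its log2 change for the mean of the endothelins was 1.24 ± 0.48 (adjusted p = 0.236 by limma with no filter). The other, 1383860_at, fell steeply over the replicate numbers, with means of 86.26, 41.22 and 14.45 in replicates 1, 2 and 3, and its change was 0.26 ± 0.29. The second Fos probe set, 1371283_at, read 3.984 to 83.43, and its change was -1.06 ± 0.55 (adjusted p = 0.391). By endothelin it was -0.646 with ET-1, -0.565 with ET-2 and -1.97 with ET-3, each ± 0.67 (limma adjusted p = 0.791, 0.772 and 0.232). Of the low Jund probe sets, 1387762_s_at averaged 313.2 in replicate 3 against 42.12 and 70.12 in replicates 1 and 2, and 1375768_at was at 1.112 to 36.91. None of these 6 passed against untreated when all 31042 probe sets were tested.

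**Figure D4:**
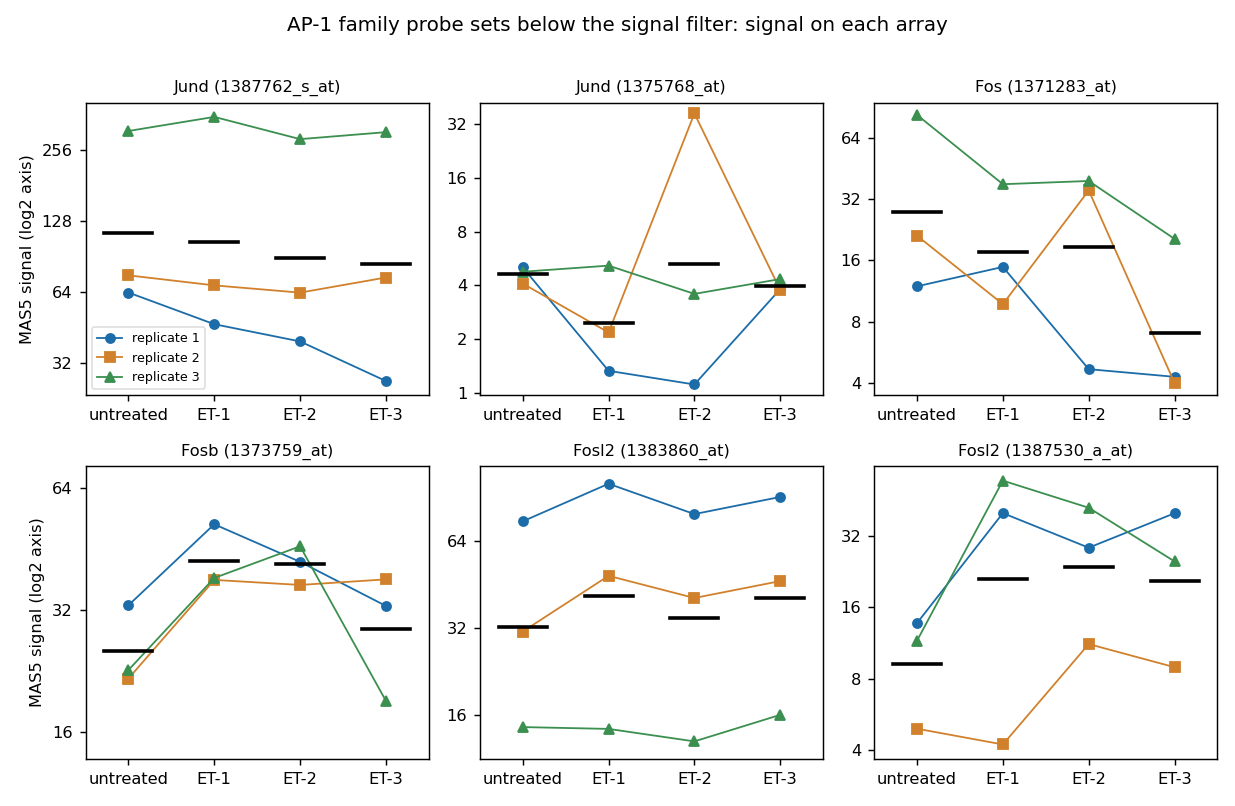
MAS5 signal (log2 axis, a different range in each panel) of the 6 AP-1 family probe sets below the filter, drawn as in the plot of the tested probe sets. Signals run from 1.112 to 355.3, lines of 1387762_s_at and 1383860_at are set apart by replicate number, and Fosb lies above untreated with ET-1 and ET-2.

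The 3 endothelins, related peptides given at one dose and time, were also compared with each other. No probe set in the whole table passed in any of the 3 comparisons by limma (574, 347 and 583 had an unadjusted p under 0.05 for ET-2 against ET-1, ET-3 against ET-1 and ET-3 against ET-2; 41, 23 and 46 without the replicate block). Background is thus 0% for the 0 of 9 member probe sets called. For Fosl1 the ET-2 to ET-1 ratio was 0.913, with a 95% interval of 0.59 to 1.41. Its ET-3 to ET-1 ratio was 0.874 (0.565 to 1.35) and its ET-3 to ET-2 ratio 0.957 (0.619 to 1.48). For Junb the ratios were 1.03 (0.748 to 1.41), 1.08 (0.783 to 1.48) and 1.05 (0.762 to 1.44). For the tested probe sets of Jun, Jund, Fos, Atf3 and Maff all intervals between endothelins lay within 0.813 and 1.27. The lowest unadjusted p among them, 0.0585, was that of Jun (1389528_s_at), 0.903-fold with ET-2 relative to ET-1.

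The genes around AP-1 were read from lists chosen with earlier results of these data known, and 1 probe set stands for each gene. Of 16 tested genes that encode other leucine zipper factors, 1 rose for the mean of the endothelins, Atf1, a CREB-related factor (0.30 ± 0.06, adjusted p = 0.0191 by limma). The count was 0 without untreated replicate 1 or untreated replicate 2 and with arrays centred on their median, and 3 without untreated replicate 3. The median of the list was 0.06. Of 14 tested genes of the JNK and ERK cascades, 0 passed (3.54% of all probe sets were called higher and 1.35% lower), and the median was -0.04. Mapk8 and Mapk9, which encode JNK1 and JNK2, changed by -0.14 ± 0.05 and -0.16 ± 0.07 (limma adjusted p = 0.109 and 0.187). Of 7 endothelin system genes, 4 had a probe set and 2 were tested. Ece1 and Ece2, endothelin-converting enzymes, changed by 0.17 ± 0.07 and -0.07 ± 0.14, neither past the threshold (limma adjusted p = 0.169 and 0.824).

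Among 23 tested immediate early genes and their regulators, 6 rose and 0 fell, beside 3.54% of all probe sets called higher and 1.35% lower, with a list median of 0.18 against -0.03 over all. Elk3, a ternary complex factor that works with SRF, rose by 0.82 ± 0.13, and Egr1, a zinc finger factor, by 0.73 ± 0.14. Ier3 rose by 0.75 ± 0.14 and Dusp1, a phosphatase that switches off MAP kinases, by 0.27 ± 0.05. The limma adjusted p of these 4 lay between 0.00319 and 0.0107. Nr4a1 (1.22) and Klf4 (0.67) also rose, and were named after their values were seen. The untreated mean signal of Nr4a1, 94.04, lay below the filter, so it was tested through its treated arrays, and 5 of the 20 genes with an untreated mean above the filter rose. Egr1 and Ier3 were already known to rise here. The count was 2 without untreated replicate 1 and 0 without replicate 1 or without replicate 2.

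Among 25 tested genes known as AP-1 targets, 16 rose and 0 fell for the mean of the endothelins. Of the 25 changes 24 were positive, beside 41.9% over all probe sets tested. The 24 include the 8 genes already seen to rise. The list median was 0.68 against -0.03 over all probe sets, of which 3.54% were called higher. Of the list, 8 genes had been seen to rise in these data before it was drawn up, and the median of the other 17 was 0.45. S100a6, a calcium-binding protein, rose by 1.99 ± 0.15, Ptgs2, the inducible cyclooxygenase, by 1.56 ± 0.19, Sphk1, a sphingosine kinase, by 1.20 ± 0.16 and the filament protein Vim by 0.67 ± 0.05. The limma adjusted p of these 4 lay between 4.02e-05 and 0.00125. The untreated mean signal of Sphk1, 100.1, lay below the filter, so it was tested through its treated arrays, and 15 of the 22 genes with an untreated mean above the filter rose. With single endothelins 12 rose with ET-1, 10 with ET-2 and 14 with ET-3 (backgrounds of 1.51%, 1.28% and 2.13% called higher). Of these other 17 genes, 8 rose: Plau, Il6, Cd44, Fn1, Itgb1, Spp1, Ezr and Sphk1, named after their values were seen except for Sphk1. The list was chosen with earlier results of these data known, so the 17 are not an independent set. The count of 16 was 8 without replicate 2 and 0 without the replicate block. Vim is also among the glial markers above, and many of these genes have other regulators.

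Of 22 tested genes that accompany Jun and Atf3 in injured neurons, 2 rose and 2 fell, with a median of -0.09 against -0.03 over all probe sets, of which 3.54% were called higher and 1.35% lower. The small heat shock protein gene Hspb1 rose by 0.81 ± 0.14 and Gadd45b by 0.32 ± 0.08. Gadd45a fell by 0.20 on the log2 scale and Bcl2l11, which encodes the pro-apoptotic BIM, fell by 0.29. Their limma adjusted p lay between 0.00466 and 0.0471, and all 4 were known from these data before the list was drawn up. None of the other 18 passed. The 2 that rose and 2 that fell became 0 and 0 without replicate 2, and 1 and 7 with arrays centred on their median. Without the replicate block none of these lists had a call.

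**Figure D5:**
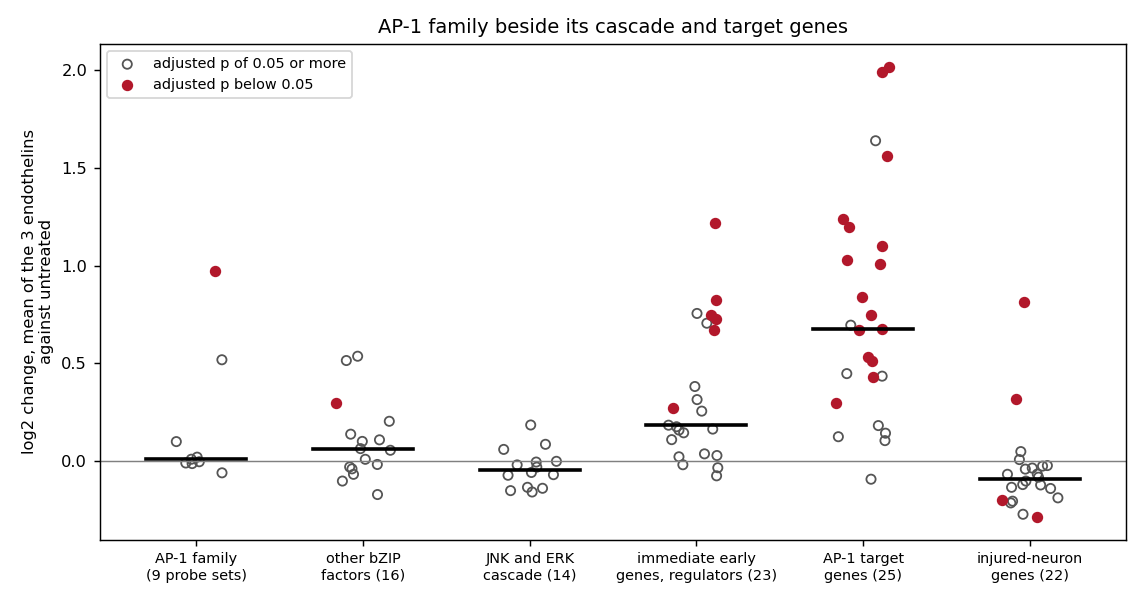
Log2 change for the mean of the 3 endothelins against untreated, 1 point per gene (per probe set for the AP-1 family); filled points have a limma adjusted p below 0.05 and black bars are medians. The medians are 0.0098 for the 9 AP-1 family probe sets, 0.06 for other leucine zipper genes, -0.04 for the JNK and ERK cascades, 0.18 for immediate early genes, 0.68 for AP-1 targets (0.45 for the 17 left without the 8 already seen to rise) and -0.09 for injured-neuron genes.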

How the data were processed

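The deposited table holds 1 MAS5 intensity per probe set and array, and the submitters' processing notes name MAS5 without a version; its settings are not given in these sources. Values were used as log2 signal, without pseudocount and not normalized again. Probe sets with a mean log2 signal over all 12 arrays at or above the median of all (a signal of 147.5) were tested, 15521 of 31042. Names came from the platform annotation: 20826 probe sets had 1 symbol, 436 several and 9780 none. Where a gene of a list had several tested probe sets, the brightest by mean log2 signal was used.

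The model was limma 3.58.1 in R 4.3.3 (lmFit, contrasts.fit, eBayes with an intensity trend) over all 12 arrays, with 4 group means and the replicate number as a block. P-values are two-sided and adjusted over the tested probe sets within each of 7 comparisons. The block follows the titles' replicate numbers, which pair the arrays in the data: after group means were removed, the 18 pairs of arrays with one number correlated (r from 0.684 to 0.912, over probe sets) against -0.706 to -0.0555 between arrays of other numbers and groups. It lowered the median residual SD from 0.25 to 0.127. The fit was tested on simulated data.

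The members, the gene lists, the block and the tests were chosen with earlier results of these data known. List genes were named by rule: at most 4 called genes per list by unadjusted p for the mean of the endothelins, or 2 where none was called. Alternatives were the fit without the block, 2 other filters, a pseudocount of 32, median centring, quantile normalization, no trend, only the groups compared, and leaving out each array or replicate number. Motifs were searched in RefSeq promoters of GRCr8. Detection calls were not used here, and the number of arrays limits the precision.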

Additional observations from a re-analysis of the deposited data

How the results depend on the processing

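The count of called member probe sets, 1 (Fosl1) for the mean of the 3 endothelins against untreated, was 0 without the replicate block, with no filter, with the stricter filter (a mean signal of 376.5, which leaves Fosl1 and Junb untested) and without the intensity trend. It stayed 1 with a pseudocount of 32, median centring and quantile normalization. Leaving out 1 array or 1 replicate number gave 0 to 2 for the mean of the endothelins and 0 to 1 for each of ET-1, ET-2 and ET-3, where the main count was 0. The 2 were Fosl1 and Junb, without untreated replicate 3, and the single calls were Fosl1. The cause was not tested. Between endothelins the count was 0 in all alternatives run. Fosl1 and Junb were higher than untreated in every alternative that tested them, and no probe set of Jun, Jund, Fos, Atf3 or Maff passed in any. The paired and unpaired fits also differ for the whole table: 758 probe sets were called for the mean of the endothelins with the replicate block and 0 without it (268, 249 and 410 against 0 for ET-1, ET-2 and ET-3). Median centring gave 1492 calls, of which 426 were higher (549 of 758 in the main fit), and moved the median of all probe sets with ET-2 to -0.12.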

Other observations

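The genes most like each of 4 members were ranked by Pearson's r over the 12 arrays after the mean of each replicate number was removed, among 9424 other tested genes. The arrays share treatment groups and scaling, so r is a description. Group means were not removed, so r includes the difference from untreated. For Fosl1 and Junb that difference was largest in replicate 1 (3.97-fold and 2.08-fold), and the weight of its untreated array in r was not tested. Fosl1 was most like Atad2 (r = 0.983), Bub3 (0.98), Sdc4 (0.979), Nr4a1 (0.976) and Gpx8 (0.976), and 203 genes had r above 0.9 with it. Of these 5, Sdc4, a syndecan, Nr4a1, an immediate early nuclear receptor, and Gpx8 rose for the mean of the endothelins (limma adjusted p = 0.00712, 0.0144 and 0.00996), by 1.24, 1.22 and 0.51 on the log2 scale. The untreated mean signal of Nr4a1, 94.04, lay below the filter of 147.5. Junb was most like LOC102547700 (0.98), Baz1a (0.977), Dancr (0.959), Psmd5 (0.959) and Eif2s1 (0.956), with 73 genes above 0.9 and none of the 5 past the threshold.

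Jun was most like Traf4 (0.893), Ttpal (0.889), Smarcd2 (0.869), Ube2n (0.858) and Ppp1r11 (0.851), and 0 genes had r above 0.9 with it. Atf3 was most like Gna11 (0.91), which encodes a G protein alpha subunit, Rnf149 (0.878), Anapc16 (0.867), Thoc3 (0.862) and B3gat3 (0.857), with 1 gene above 0.9. Within the family Fosl1 and Junb had r = 0.896, and Jun had r = 0.331 with Fosl1 and 0.36 with Atf3.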
